A study of Mus musculus with 23 samples.

Results

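The alpha subunits of heterotrimeric G proteins were followed in the brain of Bhlhe40 KO mice, which lack the transcription factor Bhlhe40, and of WT mice. The list held 10 genes, Gnai1, Gnai2, Gnao1, Gnaz, Gnas, Gnal, Gnaq, Gna11, Gna12 and Gna13, and every probe that the platform annotation assigned to them was taken, whatever its values. This gave 16 probes for 9 of the 10 genes, of 25697 probes on the chip and 16593 gene symbols in all. No probe was assigned to Gnai1, which was not analysed here. RNA levels were measured on Illumina Ref8 v2 BeadChips in 6 groups, namely KO hippocampus, WT hippocampus, KO cortex and WT cortex with 4 arrays each, and KO cerebellum with 4 and WT cerebellum with 3 arrays. All animals were male, naive, 3 to 5 months old, on the C57BL/6 background and fasted overnight. The KO allele is a germline null, so Bhlhe40 was missing in every cell type and throughout development. The animal codes in the labels show that the tissues of a genotype came from the same mice, with each array holding the tissue of 1 mouse.

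G protein alpha subunits bind GDP at rest, exchange it for GTP when a coupled receptor is activated, and then act on effectors apart from the beta-gamma dimer until they hydrolyse the GTP. They are grouped by what they act on. The Gi/o/z class (Gnai1, Gnai2, Gnao1, Gnaz) lowers cyclic AMP, and Go is the most abundant G protein of the brain. The Gs/olf class (Gnas, Gnal) stimulates adenylyl cyclase, the Gq/11 class (Gnaq, Gna11) activates phospholipase C-beta, and the G12/13 class (Gna12, Gna13) acts on the actin cytoskeleton.

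Levels are given as the log2 bead signal after Z normalization within each array, returned to the log2 scale with the mean SD (1.57) and the mean (8.43) of all arrays, so that a step of 1 stands for a doubling of the signal. No background was subtracted, which understates the change of dim probes, and levels of different probes cannot be set against each other. A probe was tested in a tissue when its detection p-value was under 0.05 on at least 3 arrays of that tissue, and called when its limma p-value, adjusted by Benjamini-Hochberg over all probes tested, was under 0.05. By this rule 14 of the 16 probes entered the tests in hippocampus and in cortex, and 13 in cerebellum. A Gnas probe (ILMN_3056973) and a Gnal probe (ILMN_3036452) were not detected on any of the 23 arrays. The Gnaq probe ILMN_2624023 was detected on 3 arrays of hippocampus, 3 of cortex and none of cerebellum. The number of arrays per group limits the precision of all comparisons.

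The Bhlhe40 probe lay between 7.94 and 8.50 in the KO arrays of the 3 tissues, against 11.67 to 12.34 in the WT arrays, and was still detected on each KO array. Of the probes of tissue markers, 6 of 6 for cerebellum, 10 of 12 for cortex and 6 of 9 for hippocampus were highest in their own tissue. Markers of the choroid plexus, which lies beside hippocampus and cerebellum, were called higher in KO for 11 of 11 probes in hippocampus and 10 of 11 in cerebellum. Of all probes tested there, 6.59% and 18.5% were called higher. In cortex 0 of 4 were called, where 0.191% of all probes were. The summed normalized signal of these markers was 28388 to 60687 in KO hippocampus against 3016 to 49259 in WT hippocampus. It was 38016 to 58773 in KO cerebellum against 19818 to 32837 in WT cerebellum. In cortex it was 2278 to 5878 in KO and 2252 to 12499 in WT. In these tissue samples a change in the number of cells of a type and a change in RNA per cell cannot be told apart.

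Between KO and WT no G alpha probe was called in cortex, where only 0.191% of all probes tested were. Gna13 was called lower and Gnai2 higher in KO in both hippocampus and cerebellum. The hippocampal call of Gnai2 (limma adjusted p = 0.0397) was lost in 5 of 8 fits that left out 1 array. In hippocampus 3 of the 14 probes were called, 1 higher (Gnai2) and 2 lower (Gna13 and a Gnaq probe), where 11.3% of all 14369 probes tested were called (6.59% higher and 4.72% lower). In cerebellum 6 of 13 were called, 2 higher (Gnai2 and Gna11) and 4 lower (Gna13, Gnaz, Gna12 and a Gnao1 probe), where 33.8% of all 13800 probes were called (18.5% higher and 15.3% lower). In cortex 0 of 14 were called by limma and 2 had an unadjusted p under 0.05, where 0.191% of all 14163 probes were called. Per the paper, 1 KO cortex array clustered with the WT arrays and was kept, and the labels do not name it. No cortex probe of the members separated the KO from the WT arrays without overlap, as 4.17% of all probes did. In hippocampus 3 of 14 member probes did so, beside 16.4% of all probes, and in cerebellum 6 of 13, beside 38.2%. The median difference over the members, KO minus WT on the log2 scale, was -0.12 in hippocampus, -0.02 in cortex and -0.05 in cerebellum, beside 0, -0.01 and 0.01 over all probes tested in these tissues. The median size of the difference without its sign was 0.12, 0.07 and 0.22 for the members and 0.11, 0.08 and 0.17 for all probes.

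**Figure D1:**
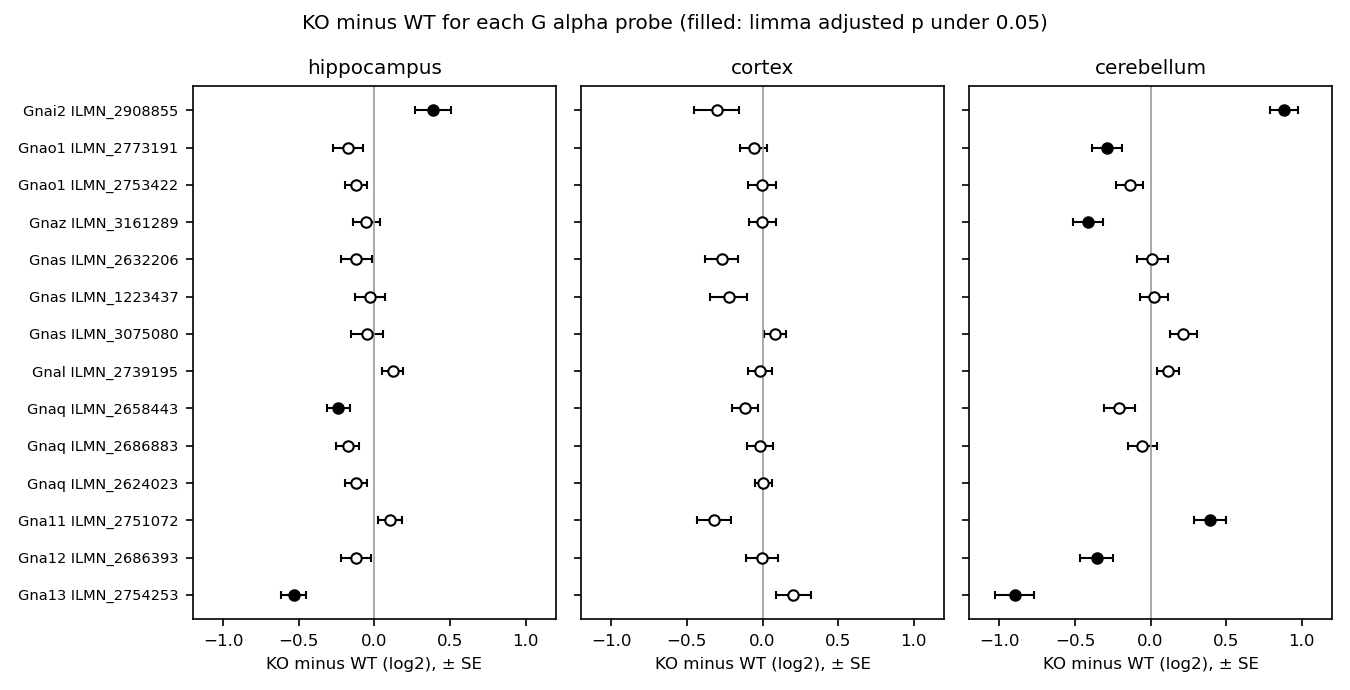
Difference between KO and WT (log2, horizontal axis) with its standard error for each G alpha probe (rows) in hippocampus, cortex and cerebellum, with filled points for an adjusted p under 0.05 in limma. Gnai2 and Gna13 stand farthest from 0 in cerebellum, at 0.88 and -0.90, and no point of cortex is filled.

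Gnai2, which encodes the inhibitory subunit Gαi2, was the member of the Gi/o/z class that rose. Its levels in cerebellum were 11.40, 11.29, 11.37 and 11.46 in the KO mice, against 10.58, 10.35 and 10.56 in the WT mice. All KO cerebella were above all WT cerebella. The difference was 0.88 on the log2 scale (SE 0.09, limma adjusted p = 1.11e-06), a 1.84-fold higher signal in KO. In hippocampus the levels were 10.75, 11.07, 11.02 and 10.66 in KO, against 10.52, 10.43, 10.82 and 10.16 in WT, so the groups overlapped. The difference there was 0.39 (SE 0.12, limma adjusted p = 0.0397), or 1.31-fold. In cortex KO mice had 10.48, 9.97, 10.66 and 10.27 and WT mice 10.82, 11.06, 10.40 and 10.31, a difference of -0.30 (SE 0.15) that did not pass (limma adjusted p = 0.548). The hippocampal call was lost when any one of WT hippocampus replicates 1, 2 and 4 or KO hippocampus replicates 2 and 3 was left out (0.28 to 0.40, limma adjusted p = 0.0718 to 0.149), and with the choroid plexus marker level as a covariate it was 0.05 (adjusted p = 0.902). The cerebellar difference was 0.96 with that covariate (limma adjusted p = 0.0327) and 0.81 to 0.92 with each array left out.

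Gnao1, the Go subunit that couples many neuronal receptors to calcium and potassium channels, was covered by 2 detected probes. On ILMN_2773191 the KO cerebella had 12.28, 12.37, 12.39 and 12.48, against 12.62, 12.64 and 12.74 in WT cerebella. The groups did not overlap, as for 38.2% of all probes tested in this tissue, and the difference was -0.29 (SE 0.10, limma adjusted p = 0.0279). The other probe, ILMN_2753422, gave -0.14 (SE 0.09) in cerebellum and did not pass (limma adjusted p = 0.258), and neither passed in hippocampus (-0.18 and -0.12) or cortex (-0.06 and 0.00). The call on ILMN_2773191 was lost without WT cerebellum replicate 3 or without any of KO cerebellum replicates 1, 2 and 3 (-0.29 to -0.25, limma adjusted p = 0.0626 to 0.0974), and was -0.16 with the choroid plexus covariate (adjusted p = 0.805).

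Gnaz encodes Gαz, a member of the inhibitory class that hydrolyses GTP slowly and is largely neuronal. Its levels in cerebellum were 10.71, 10.76, 10.62 and 10.85 in KO, against 11.22, 10.96 and 11.28 in WT. The KO values were all below the WT values, with a difference of -0.42 (SE 0.10, limma adjusted p = 0.00271), a 1.33-fold lower signal. In hippocampus the KO mice spanned 11.92 to 12.25 and the WT mice 11.97 to 12.30, and in cortex the KO mice spanned 12.21 to 12.40 and the WT mice 12.18 to 12.47. These groups overlapped almost fully (-0.06, adjusted p = 0.729, and 0.00, adjusted p = 0.995, both in limma). The cerebellar call held with each array left out (-0.51 to -0.35), and with the choroid plexus covariate the difference was -0.07 (limma adjusted p = 0.925).

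The Gs/olf class showed no call between KO and WT in any tissue. Gnas, the stimulatory subunit gene, is an imprinted locus with several transcripts, and its 3 detected probes were ILMN_2632206, ILMN_1223437 and ILMN_3075080. The annotation used did not say which transcripts each one reads. In cortex the first had 11.97, 11.85, 12.39 and 12.10 in KO, against 12.54, 12.32, 12.33 and 12.19 in WT. The groups overlapped through KO replicate 3 (-0.27, SE 0.11, unadjusted p = 0.0211, limma adjusted p = 0.455), and the second probe gave -0.22 (adjusted p = 0.590) while the third gave 0.08 (adjusted p = 0.763). In cerebellum the first and the second differed by 0.01 and 0.02, and the third by 0.22 (SE 0.09, limma adjusted p = 0.0663). Gnal, the Golf subunit of olfactory neurons and striatum, was close to background in these tissues. Its probe ILMN_2739195 was detected on 3 of 4 KO hippocampus, 2 of 4 KO cortex and 2 of 4 KO cerebellum arrays and on 1 array of each WT group, with levels of 7.33 to 7.78 in KO and 7.40 to 7.76 in WT. The differences were 0.12, -0.02 and 0.12 in hippocampus, cortex and cerebellum, none past the threshold.

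In the Gq/11 class a Gnaq probe was called lower in KO hippocampus and Gna11 higher in KO cerebellum, and in no tissue were both genes called. Gnaq, whose product drives phospholipase C-beta downstream of group I metabotropic glutamate and muscarinic receptors, had levels of 12.26, 12.16, 12 and 12.17 in KO hippocampus on probe ILMN_2658443, against 12.44, 12.40, 12.35 and 12.37 in WT hippocampus. All KO values were below all WT values, as was also the case for ILMN_2686883, the second Gnaq probe. The difference was -0.24 on the first probe (SE 0.08, limma adjusted p = 0.0471) and -0.18 on the second (SE 0.08, adjusted p = 0.146). Together with Gna13 these made 3 probes without overlap between the groups in hippocampus, where 16.4% of all probes tested had none. The call on the first probe lay close to the threshold and was lost in 7 of 8 fits that left out 1 array (without any array but KO hippocampus replicate 1, -0.25 to -0.19, limma adjusted p = 0.0529 to 0.158) and in 7 of 11 other settings, among them the replicate number as a block (-0.24, adjusted p = 0.061) and the choroid plexus covariate (-0.16, adjusted p = 0.524). In cerebellum these Gnaq probes gave -0.21 and -0.05 (limma adjusted p = 0.126 and 0.688).

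Gna11, the close relative of Gnaq with the same effector, had levels of 11.34, 11.36, 11.30 and 11.51 in KO cerebellum, against 11.25, 10.92 and 10.79 in WT cerebellum. The KO values were all higher, by a small gap above WT replicate 1. The difference was 0.39 (SE 0.11, limma adjusted p = 0.00679), or 1.31-fold, and without WT cerebellum replicate 3 it was 0.29 (adjusted p = 0.0502). In cortex the values were 10.97, 10.88, 11.40 and 11.09 in KO, against 11.33, 11.69, 11.25 and 11.36 in WT. Of the KO cortices only replicate 3 reached the WT range, with a difference of -0.32 (SE 0.11, unadjusted p = 0.00932) that did not pass after adjustment (limma adjusted p = 0.389). With the choroid plexus covariate the cerebellar difference was 0.21 (limma adjusted p = 0.750).

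Gna13 encodes Gα13, which acts on the actin cytoskeleton, and was lower in KO in both hippocampus and cerebellum. Its levels in hippocampus were 10.51, 10.75, 10.44 and 10.51 in KO, against 11.21, 11.05, 11.02 and 11.07 in WT. In cerebellum they were 10.25, 10.14, 10.16 and 9.78 in KO, against 10.91, 11.32 and 10.71 in WT. The groups were fully apart in both tissues, as for 16.4% of all probes tested in hippocampus and 38.2% in cerebellum. The differences were -0.54 in hippocampus (SE 0.08, limma adjusted p = 0.00236) and -0.90 in cerebellum (SE 0.13, limma adjusted p = 2.90e-05), signals 1.45-fold and 1.86-fold lower in KO. In cortex the values were 10.55, 10.71, 10.84 and 10.97 in KO, against 10.77, 10.34, 10.76 and 10.38 in WT, and overlapped (0.20, SE 0.11, limma adjusted p = 0.602). Both calls held with each array left out, at -0.60 to -0.49 in hippocampus and -1.03 to -0.73 in cerebellum. With the choroid plexus covariate the hippocampal difference was -0.48 (limma adjusted p = 0.0954) and the cerebellar one -1.44 (adjusted p = 0.0108).

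Gna12, the other member of this class, was lower in KO cerebellum, with 8.93, 8.67, 8.88 and 8.76, against 9.12, 9.18 and 9.19 in WT cerebellum. The KO values were all below the WT values (-0.36, SE 0.11, limma adjusted p = 0.0147). It did not pass in hippocampus (-0.12, limma adjusted p = 0.432) or cortex (-0.01, limma adjusted p = 0.991). Without KO cerebellum replicate 2 the cerebellar difference was -0.31 (limma adjusted p = 0.0582), and with the choroid plexus covariate it was -0.51 (adjusted p = 0.382). In a linear model without moderation of the variance, limma's adjusted p was 0.0846 for Gna13 and 0.226 for Gnai2 in hippocampus, and 0.0914 for Gna11 and 0.0502 for Gnaz in cerebellum, so that these calls were lost there. The covariate was the mean marker level, which was 9.73 to 10.17 in KO cerebellum and 8.74 to 9.36 in WT cerebellum. As these did not overlap, its fits in cerebellum cannot tell choroid plexus tissue from the KO effect, whichever way a value moved. In hippocampus it was 9.26 to 11.09 in KO and 7.83 to 9.72 in WT, which overlapped only in part. The part of choroid plexus tissue in the differences of all these genes was not otherwise tested.

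**Figure D2:**
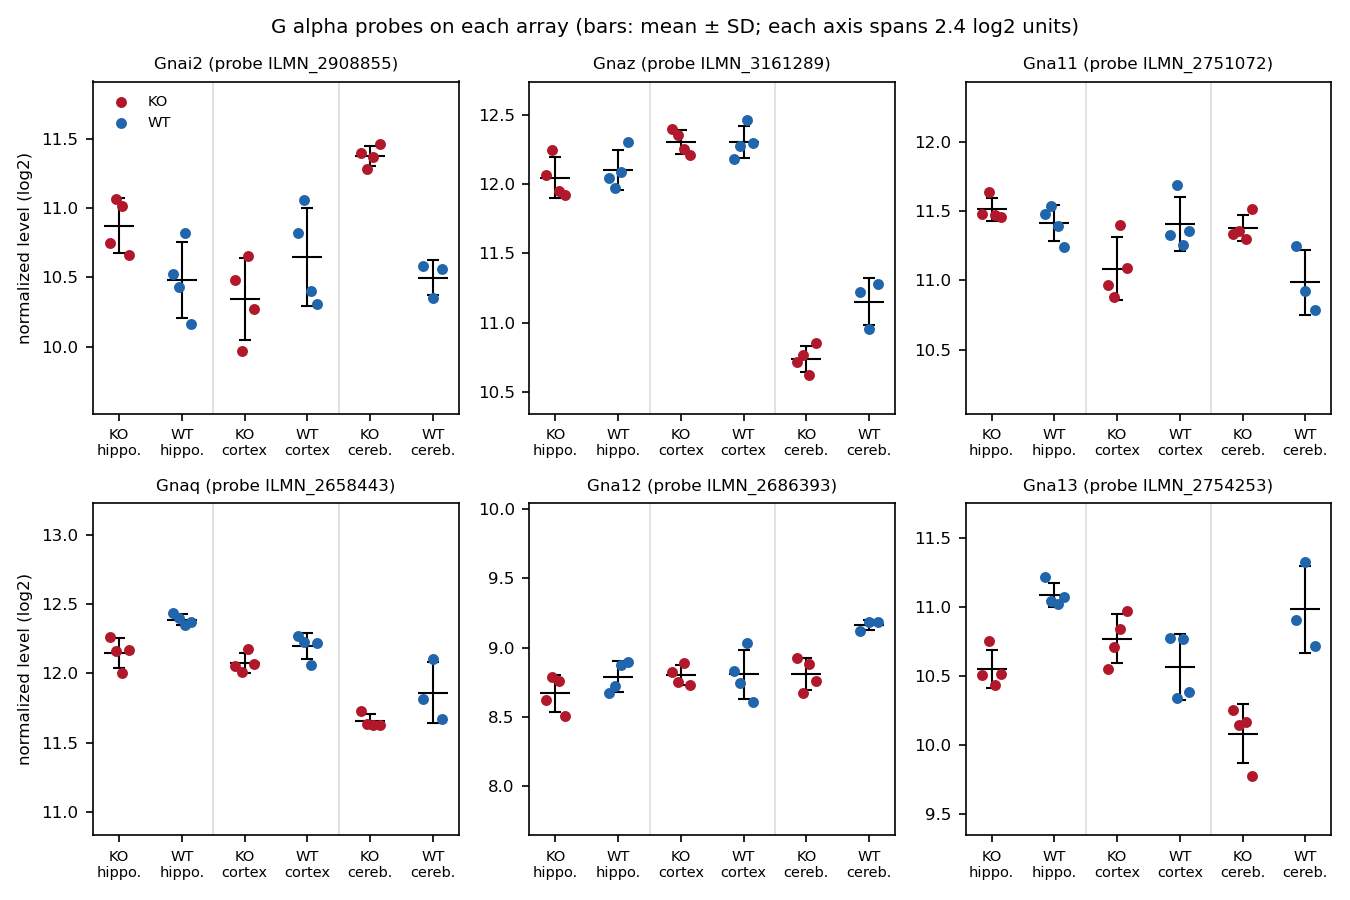
Normalized level (log2) of 6 G alpha probes on each array, KO in red and WT in blue, for hippocampus, cortex and cerebellum, with the mean and SD of each group as bars. The KO and WT points of Gna13 are apart in hippocampus and cerebellum and overlap in cortex, and those of Gnai2 are apart only in cerebellum.

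Bhlhe40 binds the palindromic E-box CACGTG, so the promoters of the members were searched for it. RefSeq windows on GRCm38.p6, from 250 bases before to 50 bases after a start site, were given for 7 of the 10 genes, in 10 windows, with none for Gnai2, Gnaz and Gnal. The motif, which reads the same on both strands, was found in 2 of these windows, those of Gna13 and Gnai1, and in 7.15% of all 32817 windows. The stretches around it are shown for both genes. The paper describes Bhlhe40 as a direct repressor at this motif, a direct activator at Sp1 sites and an indirect regulator through other proteins. Gna13 was lower in KO hippocampus and KO cerebellum. Whether the site bears on the level of Gna13 was not tested. The stretches run 5′ to 3′ on the strand of the gene, with the motif in capitals. That of Gna13 lies at chr11:109362574-109362633 on the plus strand, with the motif beginning 193 bases before the start site, and that of Gnai1 at chr5:18360499-18360558 on the minus strand, with the motif 118 bases before the start site.
Gna13: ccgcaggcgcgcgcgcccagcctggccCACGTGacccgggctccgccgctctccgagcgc
Gnai1: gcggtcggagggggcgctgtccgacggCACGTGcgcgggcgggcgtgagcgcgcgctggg
The windows of Gnao1, Gnas, Gnaq, Gna11 and Gna12 did not hold these 6 letters, which says nothing of sites elsewhere. Binding was not measured on these arrays. The paper measured it by ChIP-Seq in pooled WT hippocampi, and those peaks were not compared with the members here.

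The KO effect was then compared between tissues, with the mouse as a random block. For cortex minus cerebellum, 4 of 13 probes were called, where 30.9% of the 12968 probes tested were called. These were Gnai2 (-1.18, SE 0.21, adjusted p = 0.000131), Gna11 (-0.71, SE 0.16, adjusted p = 0.000955), Gna13 (1.10, SE 0.18, adjusted p = 5.52e-05) and Gnaz (0.41, SE 0.13, adjusted p = 0.0170), all from limma. For Gnai2 and Gna11 the KO mean was below the WT mean in cortex and above it in cerebellum, and for Gna13 the reverse was the case. The call of Gnaz was lost without WT cerebellum replicate 3 (0.35, limma adjusted p = 0.0622), and the other 3 held with each array left out. For hippocampus minus cortex, 2 of 13 were called, where 4.44% of all probes were called, namely Gna13 (-0.74, SE 0.17, limma adjusted p = 0.0197) and Gnai2 (0.69, SE 0.20, limma adjusted p = 0.0426). The first was lost without WT cortex replicate 2 (-0.66, limma adjusted p = 0.0571) or KO hippocampus replicate 3 (-0.70, adjusted p = 0.0518). The second was lost in 9 of 16 fits that left out 1 array (0.56 to 0.71, limma adjusted p = 0.0546 to 0.122), those of WT hippocampus replicates 1, 2 and 4, WT cortex replicates 1 and 2, KO hippocampus replicates 2 and 3 and KO cortex replicates 2 and 4. For hippocampus minus cerebellum, limma called 0 of 13 members, with 3 at an unadjusted p under 0.05, where 1.42% of all probes were called. Gnai2 (-0.49, SE 0.21, adjusted p = 0.222), Gnaz (0.36, SE 0.13, adjusted p = 0.156) and Gna13 (0.36, SE 0.18, adjusted p = 0.30) were those 3, all from limma.

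The tissues themselves differed in their G alpha levels, with the widest gaps among the members for Gnaz in cerebellum. Among WT mice its level averaged 11.15 ± 0.17 in cerebellum (SD, n = 3), 12.10 ± 0.14 in hippocampus and 12.31 ± 0.12 in cortex (SD, n = 4 each). WT cerebellum was 0.95 below WT hippocampus (SE 0.10, limma adjusted p = 7.53e-10) and 1.15 below WT cortex (SE 0.10, limma adjusted p = 9.27e-12), signals 1.93-fold and 2.23-fold lower. The gaps among KO mice were -1.31 and -1.57 on the log2 scale, with KO cerebellum at 10.74 ± 0.10, KO hippocampus at 12.05 ± 0.15 and KO cortex at 12.30 ± 0.09 (SD, n = 4 each). Between WT cerebellum and WT hippocampus 8 of 14 probes were called, 1 higher and 7 lower, where 51.8% of all 15219 probes were called (26% higher and 25.7% lower). Between WT cerebellum and WT cortex it was 7 of 14, 2 higher and 5 lower, where 49% were called (25.4% higher and 23.6% lower).

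Besides Gnaz, the probes that were lower in WT cerebellum than in both other WT tissues were those of Gna11 (-0.43 against hippocampus and -0.42 against cortex), Gnaq ILMN_2658443 (-0.53 and -0.33), Gnao1 ILMN_2753422 (-0.30 and -0.29) and the dim Gnaq ILMN_2624023. For the last, which was not above background on any cerebellum array, the lower bound of the fold was under 1 and none is given. Gnas was lower in WT cerebellum than in WT hippocampus on ILMN_3075080 (-0.40, adjusted p = 0.00165) and ILMN_1223437 (-0.31, adjusted p = 0.0357, both in limma), of which the second was lost without any one of 5 of the 7 arrays (WT hippocampus replicates 3 and 4 and each WT cerebellum array, adjusted p = 0.0623 to 0.0826). Gna12 was higher in WT cerebellum, at 9.16 ± 0.04 (SD, n = 3), than in hippocampus at 8.79 ± 0.11 and cortex at 8.81 ± 0.18 (SD, n = 4 each), by 0.37 and 0.36 (limma adjusted p = 0.00253 and 0.00385). The hippocampus and cortex of WT differed in Gna12 by -0.02 (SE 0.09, limma adjusted p = 0.931), less than the spread between arrays. Gna13 was higher in WT cerebellum than in WT cortex by 0.42 (SE 0.13, limma adjusted p = 0.00823), and by 0.25 without WT cerebellum replicate 2 (adjusted p = 0.142).

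Between WT hippocampus and WT cortex 2 of 14 probes were called, both higher, where 23% of all probes were called (12.1% higher and 10.9% lower). Gna13 was 0.52 higher in WT hippocampus (SE 0.12, limma adjusted p = 0.00149), with 11.02 to 11.21 in WT hippocampus and 10.34 to 10.77 in WT cortex. Gnas ILMN_3075080 was 0.34 higher (SE 0.10, limma adjusted p = 0.00901), and 0.24 without WT hippocampus replicate 1 (adjusted p = 0.0691).

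The tissue differences of the KO mice are given here beside those of WT. A call in one genotype and not in the other does not show that they differ. For the differences named here, the test of the KO effect between tissues is given where it did not pass. Between KO hippocampus and KO cortex 7 of 14 probes were called, 4 higher and 3 lower, where 43% of all probes were called (24.2% higher and 18.9% lower). Gnai2 (0.53, SE 0.14, adjusted p = 0.00327) and Gna11 (0.43, SE 0.11, adjusted p = 0.00160, both in limma) were higher in KO hippocampus than in KO cortex, and differed by -0.16 and 0.01 between the WT tissues. For Gna11 the difference of the KO effect between hippocampus and cortex did not pass (0.42, SE 0.15, limma adjusted p = 0.0799). The other calls were small: 2 Gnas probes rose by 0.30 and 0.32, and single probes of Gnao1, Gnaz and Gnaq fell by 0.24 to 0.30. Between the WT tissues these Gnas probes differed by 0.11 and 0.17, and those of Gnao1, Gnaz and Gnaq by -0.20 to -0.08. The KO effect of these 5 did not differ past the threshold for hippocampus minus cortex (-0.16 to 0.19, limma adjusted p = 0.404 to 0.828). Each of these 5 was lost without at least 1 array, and the count was 3 without KO hippocampus replicate 3 or without KO cortex replicate 2. Between KO cerebellum and KO cortex 8 of 14 were called, 2 higher and 6 lower, where 61.5% of all probes were (33.7% higher and 27.8% lower). Gnai2 was 1.03 higher in KO cerebellum (SE 0.14, limma adjusted p = 1.95e-07), and Gna13 was 0.68 lower (SE 0.12, limma adjusted p = 1.13e-05). The WT tissues differed by -0.15 in Gnai2 and by 0.42 in Gna13. Between KO cerebellum and KO hippocampus 5 of 14 were called, 1 higher and 4 lower, where 55.1% of all probes were (28.7% higher and 26.4% lower). Gnai2 was higher by 0.51 and Gna13 lower by 0.47 (limma adjusted p = 0.00330 and 0.00145). The WT tissues differed by 0.01 in Gnai2 and by -0.11 in Gna13. Their KO effects did not differ past the threshold for hippocampus minus cerebellum (-0.49 and 0.36, limma adjusted p = 0.222 and 0.3). Gna12 differed by 0.14 and 0.01 between KO cerebellum and the other 2 KO tissues and was not called. Its KO effect did not differ past the threshold for hippocampus minus cerebellum (0.23, limma adjusted p = 0.421) or for cortex minus cerebellum (0.35, limma adjusted p = 0.0559).

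**Figure D3:**
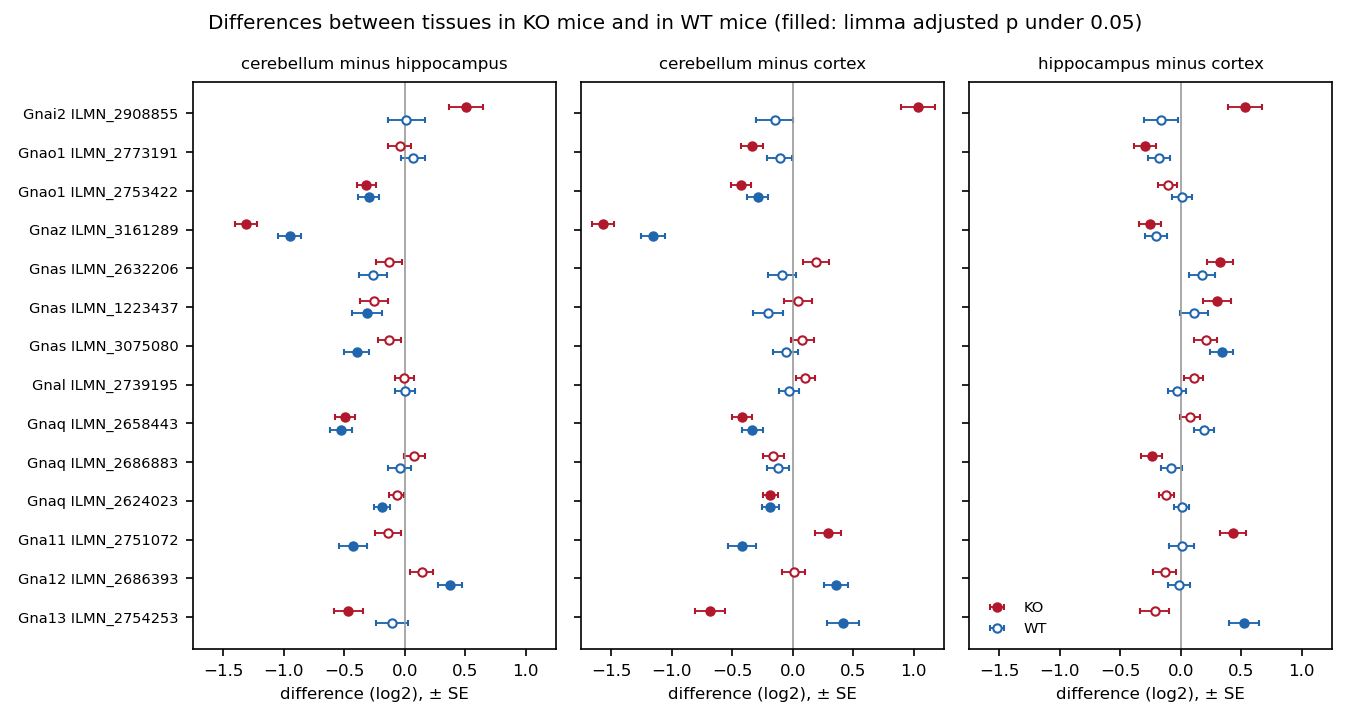
Difference between tissues (log2, horizontal axis) with its standard error for each G alpha probe (rows), in KO mice in red and WT mice in blue, with filled points for an adjusted p under 0.05 in limma. Gnaz lies far below 0 for cerebellum in both genotypes, at -1.31 and -1.57 in KO and -0.95 and -1.15 in WT, whereas Gna13 lies on opposite sides of 0 in KO and WT for cerebellum minus cortex.

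The partners and effectors of G alpha were counted by list, to be read against the 11.3% of all probes called in hippocampus and the 33.8% called in cerebellum. In the beta subunits, which hold G alpha at rest, 1 of 7 probes rose and 2 fell in KO cerebellum, with Gnb2 higher by 0.39 (adjusted p = 0.00274), Gnb5 lower by 0.39 on 1 probe (adjusted p = 0.00250) and Gnb4 lower by 0.34 (adjusted p = 0.0263, all in limma), a share near that of all probes. In the gamma subunits, which anchor the dimer in the membrane, 6 of 9 probes rose in KO cerebellum and none fell, where 18.5% of all probes rose, with a median of 0.29 against 0.01 over all probes. Gng13 (0.74, SE 0.14), Gng10 (0.72, SE 0.10) and Gng5 (0.57, SE 0.09) were those with the largest differences (limma adjusted p = 0.000332, 2.21e-05 and 5.15e-05). In hippocampus 0 of 7 beta probes and 1 of 9 gamma probes were called, the striatal subunit Gng7, which was lower in KO (-0.32, SE 0.09, limma adjusted p = 0.0269).

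Of the adenylyl cyclases and phospholipases C-beta, none was called in hippocampus or cortex. In KO cerebellum 2 of 7 adenylyl cyclase probes were lower, where 33.8% of all probes were called in either direction, Adcy2 (-0.34, limma adjusted p = 0.00979) and Adcy9 (-0.33, adjusted p = 0.0187), and 1 of 2 phospholipase C-beta probes, Plcb4 (-0.44, adjusted p = 0.00796, all in limma), which acts downstream of Gq in Purkinje cells. The medians of these lists in cerebellum were -0.02 for the cyclases and -0.29 for phospholipase C-beta, and that of the beta subunits was -0.19. The RGS proteins speed GTP hydrolysis by G alpha. In KO cerebellum 4 of their 13 probes were higher and 2 lower, beside 18.5% and 15.3% of all probes, led by Rgs10 (0.85, SE 0.12, limma adjusted p = 2.27e-05), Rgs17 (0.81, SE 0.12, limma adjusted p = 2.68e-05) and Rgs8 (-0.47, SE 0.13, limma adjusted p = 0.00625). The median of the list was -0.03 in cerebellum and 0.02 in hippocampus. In KO hippocampus, where 11.3% of all probes were called, 1 of 14 was higher, Rgs10 (0.52, SE 0.11, limma adjusted p = 0.00871), and 1 lower, Rgs4 (-0.33, SE 0.08, limma adjusted p = 0.0197).

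Of the other regulators of G alpha, Ccdc88a, which encodes the exchange modulator girdin, was lower in both KO hippocampus (-0.41, SE 0.09, limma adjusted p = 0.0107) and KO cerebellum (-0.55, SE 0.10, limma adjusted p = 0.000462). It was the only one of 8 probes called in hippocampus. In cerebellum Rgs7bp was also lower (-0.42, limma adjusted p = 0.0154) and the Purkinje cell gene Pcp2 higher (0.41, limma adjusted p = 0.0306), of 7 probes tested. In cortex no probe of these lists was called. Of the 6 alpha subunit genes that the list of 10 leaves out, 1 (Gna14) was tested in hippocampus, where KO and WT differed by -0.08 without a call.

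The other cell types in the samples were followed through their markers, whose counts are again to be read against the 33.8% of all probes called in cerebellum and the 11.3% called in hippocampus. In KO cerebellum 2 of 7 microglial probes were higher, C1qb and C1qa (0.55 and 0.34), and in hippocampus Aif1 was higher (0.30) and Cx3cr1 lower (-0.33). Endothelial probes were higher for 2 of 7 in both tissues (Ly6c1 and Flt1) and lower for 3 in cerebellum. Of 12 oligodendrocyte probes 1 rose in hippocampus, and 1 rose and 1 fell in cerebellum, while astrocyte probes rose for 0 of 12 in hippocampus and 2 of 11 in cerebellum. The summed signal of the microglial list was 2309 to 2706 in KO cerebellum against 1959 to 2299 in WT cerebellum, and 3845 to 4174 in KO hippocampus against 3865 to 4259 in WT hippocampus. Striatal markers summed to 13593 to 28252 in KO cortex and 10890 to 16557 in WT cortex, with none of 10 probes called, and were higher for 2 of 9 probes in KO hippocampus and 3 of 7 in KO cerebellum, with none lower. Their summed signal was 7685 to 8287 in KO hippocampus against 7507 to 7896 in WT hippocampus, and 6983 to 8123 in KO cerebellum against 6345 to 7320 in WT cerebellum. The part of these cell types in the G alpha differences was not tested. The differences between KO and WT also ran with the length of the gene, with a Spearman correlation of -0.36 over 13532 probes in hippocampus, 0.21 over 13324 in cortex and -0.33 over 12997 in cerebellum, and of -0.43, 0.23 and -0.23 over 9 members with 1 probe each. The members ranged from 16.4 kb (Gna11) and 21.3 kb (Gnai2) to 256 kb (Gnaq).

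Across the 23 arrays the 2 bright Gnas probes, ILMN_2632206 and ILMN_1223437, ran together (Pearson's r = 0.87, and 0.84 after removal of the group means), whereas the 2 Gnao1 probes had r = 0.54 and 0.31, and the Gnaq probes ILMN_2658443 and ILMN_2686883 r = 0.33 and 0.49. Between genes, with the brightest probe of each, Gnai2 and Gna13 had r = -0.71, and -0.15 after removal of the group means. Gnai2 and Gna11 had 0.53 and 0.61, and Gnaq and Gnaz 0.77 and -0.49. These are descriptions over arrays that share normalization, tissues and mice.

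The genes whose pattern over the 23 arrays was most like that of a member were named by Pearson's r. For Gnaz they were Adcy2 (0.98), Rasgrp1 (0.979) and Cacna2d3 (0.979), which were 0.402, 0.291 and 0.391 once the group means were removed. For Gnai2 they were Rtl8a (0.934), Cox19 (0.912) and Iscu (0.906), and 0.893, 0.755 and 0.676 without the group means. For Gna13 they were Ist1 (0.87), Clcn3 (0.847) and Slc35f3 (0.843), and 0.65, 0.242 and 0.575 without the group means. For Gnaq they were Utp4 (0.932), Il1rap (0.93) and Rspo3 (0.928), and 0.596, 0.518 and 0.662 without the group means. For Gnao1 they were Klc1 (0.916), Ppp2ca (0.876) and Ddx24 (0.864), and 0.851, 0.762 and 0.785 without them. Gna11 ran with Gm9731 (0.885), Bet1l and Zfp771 (0.882 each), with 0.855, 0.845 and 0.733 without the group means. Gna12 ran with Birc2 (0.837), Sybu (0.814) and Gpatch11 (0.813), with 0.564, 0.469 and 0.534 without them. The highest values for Gnas (Atpaf2, 0.787, and 0.699 without the group means) and for the dim Gnal probe (Pwp2, 0.676 and 0.635) were lower.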

How the data were processed

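Total RNA of hippocampus, cortex and cerebellum was hybridised to 1-colour bead arrays, 23 in all. The deposited intensities are GenomeStudio (2011.1, per the submitters' processing notes) mean bead signals with no background subtracted, the lowest being 103.7. The deposited detection p-values compare each probe with the negative control beads. The authors also deposited score values, which are Z scores of the log2 signal within each array. The Z scores computed here differed from them by at most 9.96e-05. Each array had 50.9 to 55.5% of probes detected and a median signal of 164.4 to 267.9.

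Z scores were multiplied by the mean SD (1.57), and 8.43, the mean log2 signal, was added for levels. Symbols came from the platform annotation, updated through Entrez identifiers. Of 25697 probes, 23978 had 1 symbol and 1719 had none. Tests used limma 3.58.1 (lmFit, eBayes with trend) in R 4.3.3, with adjustment over all probes tested. KO and WT were compared within each tissue alone. Tissue contrasts and differences of the KO effect used all 6 groups with the mouse as a random block (consensus correlation 0.00476 and 0.00272), over 15219 probes kept in at least 1 tissue and 12968 kept in every tissue. Fits that left out an array kept these correlations. The steps were tested on simulated data.

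Every probe of the members was reported or counted, up to 3 called genes with the largest difference were named per pathway list and contrast, and the 3 most correlated genes per member, with marker genes named as called. One list of effectors is not reported here. The members, lists and tests were chosen with earlier results of these data known. Animals are separate by their codes, and per the authors 1 WT cerebellum array was removed and 1 KO cortex array that clustered with WT was kept. Arrays of the same number in KO and WT had correlations of deviations of -0.332 to 0.276 over 11 pairs, and arrays of the same mouse -0.209 to 0.204 over 22 pairs. The alternatives were other normalizations, background correction, detection filters, 1 probe per gene, blocks, an unmoderated model, the methods' thresholds, each array left out and, added after the data were seen, a choroid plexus covariate.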

Additional observations from a re-analysis of the deposited data

Results flagged for a closer look

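In 4 of 69 groups of 4 arrays, 1 array stood apart from the other 3 by more than Dixon's 95% limit, where chance gives about 1 in 20 (5%). Gnas ILMN_2632206 was 12.47 in KO cerebellum replicate 4 and 12.18 to 12.22 in the others, and Gnas ILMN_3075080 was 7.84 in KO cortex replicate 4 and 7.79 to 7.80 in the others. Gnaq ILMN_2658443 was 11.73 in KO cerebellum replicate 1 and 11.63 in each of the others. Gna11 was 11.64 in KO hippocampus replicate 2 and 11.46 to 11.48 in the others.

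The KO effect differed between tissues by the limma interaction test for 6 pairs of probe and contrast. For hippocampus minus cortex these were Gnai2 (0.69) and Gna13 (-0.74), where 4.44% of all probes tested were called. With 1 array left out, the call of Gnai2 was lost in 9 of 16 fits and that of Gna13 in 2 of 16. For cortex minus cerebellum they were Gnai2 (-1.18), Gna13 (1.10), Gna11 (-0.71) and Gnaz (0.41), all on the log2 scale. There 30.9% of all probes tested were called, and the call of Gnaz was lost in 1 of 15 such fits.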

How the results depend on the processing

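No called direction was reversed under any alternative run. Of the alternative counts, 191 stayed within 1.5 times the main count and 26 did not. Of the alternative values of single probes, 2718 kept their side of the threshold, 84 lost a call and 29 gained one. The hippocampal count of KO against WT (3) was 1 without a detection filter and 1 with all 6 groups in one fit, and 0 in an unmoderated model, which called 20 of all probes, and 0 with the choroid plexus covariate. That covariate left 2 of the 6 calls in cerebellum, where its level did not overlap between KO and WT. The KO effect of hippocampus minus cortex gave 1 call without a detection filter. WT hippocampus against WT cortex gave 1 with detection p under 0.01 on every array and 1 with 1 probe per gene. The latter setting kept the brightest probe of a gene and left 4 calls between WT cerebellum and WT hippocampus. Called probes of Gnao1, Gnas and Gnaq that were not the brightest dropped out there. The brightest Gnao1 and Gnas probes were not called in the main fit either (limma adjusted p = 0.589 and 0.0629). The cause of the other changes was not tested.

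With each array left out, KO against WT gave 1 to 3 calls in hippocampus (1 without any of WT replicates 1, 2 and 4 and KO replicates 2 and 3), 0 in cortex and 5 to 6 in cerebellum. The KO effect gave 0 to 3 for hippocampus minus cortex (0 without WT cortex replicate 2 or KO hippocampus replicate 3), 0 for hippocampus minus cerebellum and 3 to 5 for cortex minus cerebellum. KO cerebellum gave 7 to 9 against cortex and 5 to 6 against hippocampus, KO hippocampus against cortex 3 to 7. WT cerebellum gave 6 to 7 against cortex and 6 to 9 against hippocampus, and WT hippocampus against cortex 1 to 3 (1 without WT hippocampus replicate 1).

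With the replicate number as a block, the counts were 2, 0 and 6 in hippocampus, cortex and cerebellum, and the one call that changed was Gnaq in hippocampus (-0.24, limma adjusted p = 0.061). The numbers did not pair the mice. Without the mouse block, all counts of tissue contrasts (8, 7, 2, 5, 8 and 7) and of KO effects (2, 0 and 4) equalled the main ones. With the mouse as a fixed block the tissue counts were also 8, 7, 2, 5, 8 and 7, where between WT cerebellum and WT hippocampus Gnas ILMN_1223437 was lost and Gnas ILMN_2632206 gained. The methods' thresholds gave 4, 0 and 7 between KO and WT. They are looser, with unadjusted p under 0.05, FDR under 0.3 and an F test over the 6 groups. The shares of all probes given above belong to adjusted p under 0.05 and cannot be set beside these counts. Dim probes near background limit what can be seen for Gnal and the weakest Gnaq and Gnas probes.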
